A study of Mus musculus with 13 samples.

Results

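A group of 1065 OLIG2 called peaks of newly formed oligodendrocytes (NFOs) is described here. They were chosen by 3 deposited peak lists: a called peak of OLIG2 in NFOs that shared no base with a called peak of OLIG2 in oligodendrocyte progenitor cells (OPCs) and at least 1 bp with a called peak of trimethylated histone H3 lysine 4 (H3K4me3) in NFOs. The NFO OLIG2 list held 16911 peaks, and 6.30% of them met this choice. The first condition was met by 15852 peaks (93.7%) and H3K4me3 overlap by 1392 (8.23%). Because these lists made the choice, the absence from OPCs and the H3K4me3 in NFOs are not results. The genes at the peaks, the marks at the same place in the other 5 histone lists and the DNA around the summits were not used by it.

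The study compared 3 stages of the mouse oligodendrocyte lineage by chromatin immunoprecipitation sequencing (ChIP-Seq), with 1 library per condition and no replicates. Of 13 samples, the 8 ChIP-Seq peak lists were used, which cover OLIG2 in OPCs and NFOs, and H3K4me3 and H3K27me3 in neural stem cells (NSCs), OPCs and NFOs. All samples were labelled untreated, and C57BL/6 was the strain given for every one. For NSCs the growth notes state instead that the cells were bought from a supplier, came from E14.5 cortices of CD-1 mice and were cultured with growth factors, so NSC marks describe a cultured line of another strain. OPCs and NFOs were immunopanned from the brain of postnatal day 7 C57BL/6 mice, OPCs on PDGFRα antibody and NFOs afterwards on GalC antibody, once microglia and endothelial cells had been taken out on BSL-1 plates. How many animals went into a library is not given in the sources used here. In each of the 6 histone samples the antibody label named the other mark than the title did. Titles were followed here, because the peak names inside the lists carry the title's mark. With the titles, an H3K4me3 peak lay within 1 kb of a TSS (transcription start site) for 24 of 24 cell cycle genes in NSCs, for 24 in OPCs and for 18 in NFOs. H3K27me3 peaks lay at 3 of these 24 genes in each cell type, but at 10, 13 and 12 of 18 neuron marker genes in NSCs, OPCs and NFOs. H3K4me3 peaks lay at 15, 13 and 7 of the same 18 neuron marker genes, so in NSCs and OPCs these genes did not separate the marks. Read numbers are not in the lists, so the depth behind each peak is unknown. Shares below carry exact 95% binomial (Clopper-Pearson) intervals, which cover counting error only and not the spread between animals or libraries.

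OLIG2 is a basic helix-loop-helix transcription factor that binds E-boxes, 6-base sites of the form CANNTG, and is needed to form the oligodendrocyte lineage. H3K4me3 marks the start sites of genes that are active or ready for transcription, whereas H3K27me3 is laid down by Polycomb complexes at silenced genes. A place that carries both is called bivalent and is typical of developmental regulators. As OPCs stop dividing and become NFOs, they begin to make myelin lipids and proteins and extend processes around axons.

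The DNA beside the summits had a common feature. The strongest members with H3K4me3 also in NSCs and OPCs, with H3K4me3 also in OPCs only, and on NFO H3K27me3 are printed, each the first by OLIG2 fold whose window holds no exon, with 100 bases on each side of the summit, to show runs of at least 10 A or T in capitals. The bases are the plus strand of the C57BL/6J reference, build GRCm38 (mm10), 5′ to 3′. Each is named by its nearest gene or, where marked as an intron, by the protein-coding gene that holds it.
Bicra, H3K4me3 also in NSCs and OPCs, chr7:16048130-16048330: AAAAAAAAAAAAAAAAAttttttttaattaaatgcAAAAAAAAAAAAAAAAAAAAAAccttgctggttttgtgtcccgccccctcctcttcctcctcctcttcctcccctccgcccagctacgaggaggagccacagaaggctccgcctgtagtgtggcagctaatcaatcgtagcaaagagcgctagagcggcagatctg
Ank3 intron, H3K4me3 also in OPCs only, chr10:69572166-69572366: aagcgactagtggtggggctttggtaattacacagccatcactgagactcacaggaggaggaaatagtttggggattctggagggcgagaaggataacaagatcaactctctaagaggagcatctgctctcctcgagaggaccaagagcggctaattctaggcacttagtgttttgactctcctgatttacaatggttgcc
Icam5 intron, H3K27me3 in NFOs, chr9:21033842-21034042: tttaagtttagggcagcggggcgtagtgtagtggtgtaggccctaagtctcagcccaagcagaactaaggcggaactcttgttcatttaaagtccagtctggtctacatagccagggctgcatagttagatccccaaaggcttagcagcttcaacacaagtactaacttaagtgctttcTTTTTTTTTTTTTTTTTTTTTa
In these 3 sequences the Bicra peak had runs of A to the left of the summit, Icam5 had a run of 21 T to the right, and the Ank3 intron had none.

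Such runs were the rule among the members. A run of at least 10 A that ended within 100 bp to the left of the summit, or of at least 10 T that began within 100 bp to its right, is called a facing run here. It was present at 785 of 1065 members (73.7%, 95% interval 71.0 to 76.3), against 64.8% of all NFO OLIG2 peaks. The opposite order, T on the left or A on the right, was found at 13 members (1.22%, 0.652 to 2.08). At annotated TSSs taken as centres in the same way, the orders were about equally rare, with 1.26% facing and 1.48% opposite among 121387 windows. Runs of A most often ended 30 to 40 bp left of a member's summit (8.54% of members) and runs of T most often began 30 to 40 bp right of it (7.42%). Runs were more frequent at strong peaks, with 37 of 39 members above 20-fold OLIG2 enrichment (94.9%, 82.7 to 99.4) and 89 of 148 at 5-fold or less (60.1%, 51.8 to 68.1). The OPC OLIG2 list had them at 66.6% of its peaks and NFO peaks shared with OPCs and on H3K4me3 at 83.2% (78.7 to 87.1). The OLIG2 libraries were made from few cells with the DNA SMART ChIP-Seq Kit, which adds a homopolymer tail to single-stranded DNA and copies it from a complementary primer. The part of this step in the members' peaks was not tested, and the main shares are also given for the members with no facing run.

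**Figure D1:**
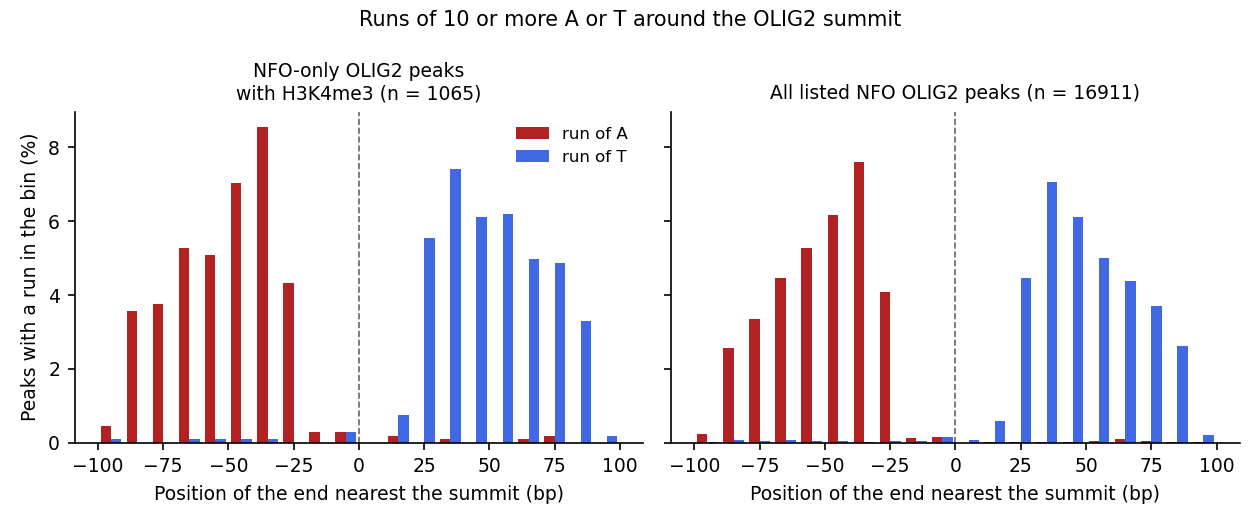
Share of peaks (%, vertical axis) with a run of at least 10 A (red) or T (blue) whose end nearest the OLIG2 summit lies in each 10 bp bin (horizontal axis, bp from the summit, plus strand), for the 1065 members on the left and all 16911 NFO OLIG2 peaks on the right. Nearly all runs of A lie left of the summit and of T right of it in both panels, with maxima of 8.54% and 7.42% of members at 30 to 40 bp.

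The H3K4me3 peaks under the members carried the same order of runs at their edges. Of the 1056 NFO H3K4me3 peaks that overlapped a member, 85.5% (83.2 to 87.6) had a run of A within 100 bp of the left edge or of T within 100 bp of the right edge, and 2.37% had the opposite order. Over all NFO H3K4me3 peaks the shares were 60.6% and 2.19%. Width went with it: 574 of the 594 member-bearing H3K4me3 peaks under 400 bp (96.6%) had such a run and 329 of 462 wider ones (71.2%). At 598 members (56.2%, 53.1 to 59.2) 1 and the same run lay beside both the OLIG2 summit and the edge of the H3K4me3 peak. It was so for 74.9% of members on H3K4me3 under 400 bp and for 32.5% on wider peaks. The choice made the 2 peaks overlap, so in a narrow peak a run near the summit is often near the edge too. A shared run, and more edge runs at member-bearing peaks, can therefore follow from the choice and are no separate result. No run at either place was found for 68 members (6.38%). The edges of NSC and OPC H3K4me3 peaks had the facing order in 48.7% and 28.6%, against 7.52% and 1.60% with the opposite order. H3K27me3 peaks had the facing order in 57.7% (OPCs), 26.1% (NFOs) and 12.8% (NSCs), and the opposite order in 2.82%, 1.44% and 19.8%. Which kit made the histone libraries is not given in the sources used here. The shares at a TSS and on NSC H3K4me3, OPC H3K4me3 and NFO H3K27me3 are also given for the 471 members on an NFO H3K4me3 peak of at least 400 bp.

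The members were short peaks of moderate enrichment. All 1065 were 236 bp wide, and the OLIG2 fold enrichment over control ran from 2.02 to 39.6 with a median of 8.93, against a median of 8.12 over all NFO OLIG2 peaks. Peaks shared with OPCs on H3K4me3 had a median of 14.1. Fold enrichment above 5 with a false discovery rate (FDR) below 0.05 was met by 917 members (86.1%), against 83.2% of all NFO OLIG2 peaks. The OPC OLIG2 list stopped at a −log10 FDR of 3.63 and the NFO list at 0.287, so a weak NFO peak had no counterpart of like FDR in the OPC list. At or above the OPC list's lowest −log10 FDR were 473 members (44.4%), against 36.0% of all NFO OLIG2 peaks. The summit lay inside the H3K4me3 peak for 1018 members (95.6%), and the median overlap was 179 bp.

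At the edge of the choice, the smallest H3K4me3 overlap of a member was 33 bp, upstream of Cfdp1. Overlaps of 41 bp followed at Chrm3 and at Gnai3. Just outside, an OLIG2 peak in H3f3a touched an H3K4me3 peak without sharing a base, and those near Gm33641 and Aph1c were 27 and 29 bp away. Toward the OPC list, the members nearest to an OPC OLIG2 peak were 40 bp from it near Gm31515, 95 bp near Gm46609 and 143 bp near Sephs1. Peaks that shared 19 bp with an OPC peak at Map3k8 and 39 bp at Lsamp fell just outside. An OPC OLIG2 peak lay within 5 kb of 89 members (8.36%, 6.76 to 10.2), and within 1 kb of 23. The 5 kb share was 10.0% (6.75 to 14.1) with no facing run, 4.04% for NFO-only peaks without H3K4me3 and 10.3% over all NFO OLIG2 peaks, which include those shared with OPCs.

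Members gathered at gene starts. The summit of 463 members (43.5%, 40.5 to 46.5) lay within 1 kb of a TSS, where all NFO OLIG2 peaks gave 9.62%. The share was 44.6% (38.7 to 50.7) for the 280 members with no facing run and 56.5% (51.9 to 61.0) on NFO H3K4me3 of at least 400 bp. NFO-only peaks that had no H3K4me3 were at a TSS in 6.08%, and peaks shared with OPCs on H3K4me3 in 62.1% (56.6 to 67.4). H3K4me3 itself marks start sites, so a choice on it raises this share. Of the 463 summits, 255 (55.1%) were upstream of the TSS and 208 downstream, with a median distance of 350 bp. Within 100 bp of the TSS were 97, and 91 (19.7%) had TSSs of both strands within 1 kb. Elsewhere, 514 of all members (48.3%) lay in introns, 141 (13.2%) in exons and 410 (38.5%) between genes, where all NFO OLIG2 peaks gave 51.8%, 5.81% and 42.4%.

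**Figure D2:**
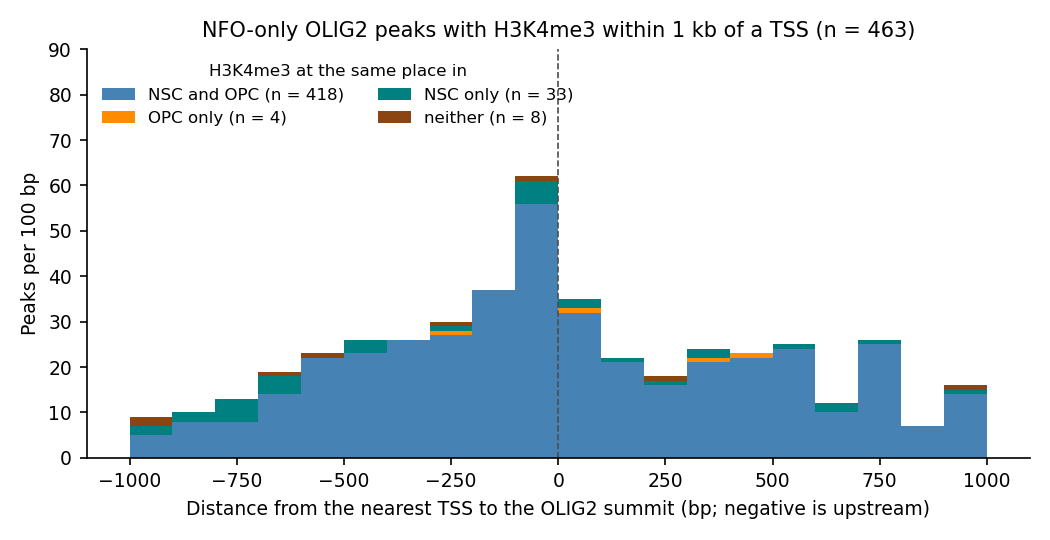
Number of members per 100 bp (vertical axis) by distance of the OLIG2 summit from the nearest TSS (horizontal axis, bp, negative upstream), coloured by H3K4me3 at the same place in the NSC and OPC lists. Of 463 members, 97 lie within 100 bp of the TSS, and 418 have H3K4me3 in both other cell types.

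By gene, 560 of 43224 annotated genes (1.30%) had a member within 1 kb of a TSS, of which 448 were protein-coding and 112 were long non-coding RNAs (lncRNAs). Counting 5 kb upstream and the gene body, 1135 genes (2.63%) had a member, against 9013 (20.9%) with any NFO OLIG2 peak. They were 825 protein-coding genes and 310 lncRNAs, and 218 members had no gene by this measure. Protein-coding genes with 3 members were Ank3, which encodes the scaffold protein ankyrin-G, Foxp1, a forkhead transcription factor, and Zfp936, a zinc finger gene.

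Of the 15 members of highest OLIG2 enrichment, 12 lay within 1 kb of a TSS. The highest was 39.6-fold and lay 309 bp upstream of Bicra, which encodes a subunit of a chromatin remodelling complex. Next came a peak of 38.8-fold, 147 bp upstream of Arl8b, a small GTPase of lysosome transport. Cnot2, a scaffold of the CCR4-NOT deadenylase, had a peak of 31.2-fold in an intron, 366 bp upstream of a TSS inside the gene. At Snhg6, a host gene of small nucleolar RNAs, the value was 30.7-fold 412 bp downstream of the TSS. All 4 places had H3K4me3 in NSCs and OPCs and no H3K27me3 in any list. For NSCs, OPCs and NFOs in this order, the H3K4me3 fold enrichment at Bicra was 12.3, 9.27 and 16.6. At Arl8b it was 12.1, 7.45 and 3.89, so that the NFO value was the lowest there and the highest at Bicra. Folds of different libraries are not on 1 scale, since control and depth differ.

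Others among the 15 highest were Tamm41, which makes a lipid precursor in mitochondria (28.2-fold), Azi2, an adaptor of innate immune signalling (26.2), Il1rap, a subunit of the interleukin-1 receptor (25.9), and Rpl7, a ribosomal protein (25.5). A peak of 27.7-fold lay in an exon of the lncRNA Gm5464 and 548 bp upstream of Dpysl2, which encodes a microtubule-binding protein of growing axons. Another of 27.3-fold lay in an exon by the annotation, 214 bp upstream of a TSS of Gm4673 and 392 bp upstream of Usf2, itself an E-box-binding factor. Diexf, a factor of ribosomal RNA processing, had 25.2-fold and Dhrs3, a retinal reductase, 24.9-fold. All 15 had a facing run within 100 bp of the summit. The 3 farther than 1 kb from a TSS were the peaks nearest to Gm13632 (30.5-fold), Ahrr (25.2) and Gm35236 (24.8).

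Marks at the same place in earlier stages were then compared. H3K4me3 was listed in NSCs under 800 members (75.1%, 72.4 to 77.7), where all NFO OLIG2 peaks gave 14.0%. In OPCs it was listed under 641 (60.2%, 57.2 to 63.1), against 6.25% of all NFO OLIG2 peaks. For reference, of the whole NFO H3K4me3 list 60.0% was on NSC H3K4me3 and 53.5% on OPC H3K4me3. NFO peaks shared with OPCs on H3K4me3 had 92.0% in NSCs (88.6 to 94.7) and 86.5% in OPCs (82.4 to 90.1), above the members' intervals. For the mirror set, 631 OPC-only OLIG2 peaks on OPC H3K4me3, 92.6% had H3K4me3 in NSCs and 83.8% in NFOs. Members with no facing run had 81.1% in NSCs (76.0 to 85.5) and 64.3% in OPCs (58.4 to 69.9). On NFO H3K4me3 of at least 400 bp the values were 83.2% (79.5 to 86.5) and 71.8% (67.5 to 75.8).

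**Figure D3:**
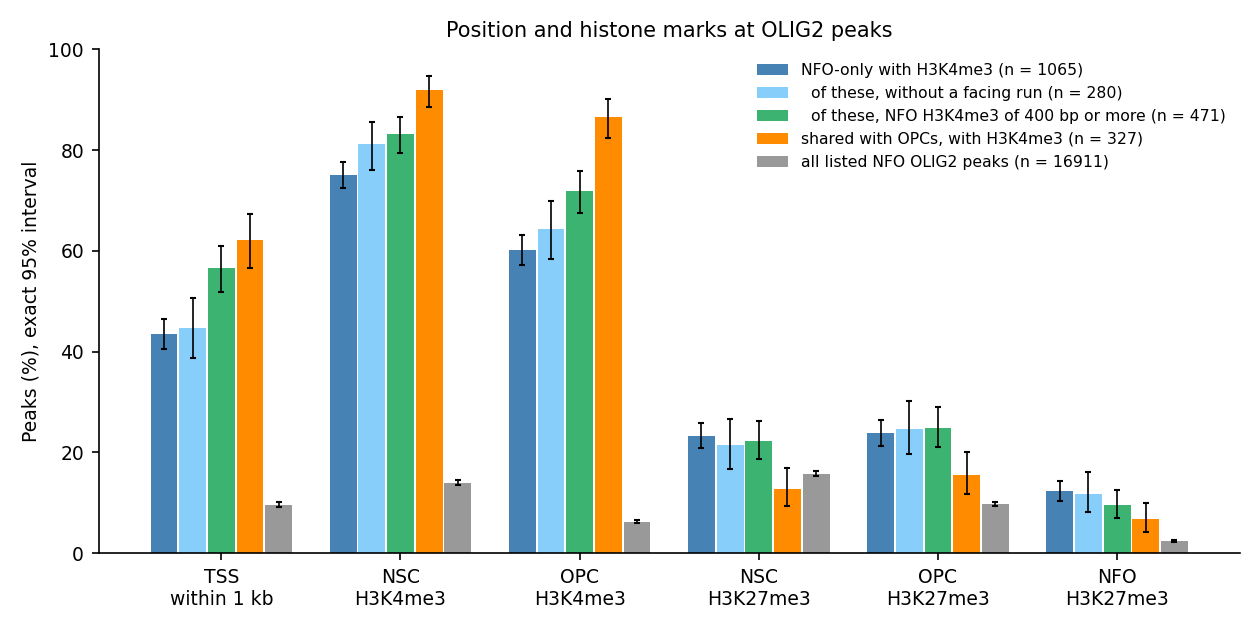
Share of peaks (%, vertical axis, bars with exact 95% intervals) within 1 kb of a TSS and on each of the 5 histone lists that the choice did not use (horizontal axis), for the members, the members with no facing run, the members on wide NFO H3K4me3, the peaks shared with OPCs on H3K4me3 and all NFO OLIG2 peaks. H3K4me3 in OPCs is under 60.2% of members and 86.5% of shared peaks, and NFO H3K27me3 under 12.3% and 6.73%.

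The members fell into 4 patterns by H3K4me3 in NSCs and OPCs, which differed in position and in the NFO mark. Most, 604 (56.7%), had it in both, and 418 of these (69.2%, 65.4 to 72.9) were at a TSS. Their NFO H3K4me3 peaks had a median width of 518 bp and a median fold of 8.59. In NSCs but not OPCs it was listed for 196 members (18.4%), with 33 at a TSS (16.8%, 11.9 to 22.8), a median width of 224 bp and a median fold of 3.51. In OPCs but not NSCs it was listed for 37 (3.47%), with 4 at a TSS, 252 bp and 3.76-fold. Neither list had it for 228 (21.4%), with 8 at a TSS (3.51%, 1.53 to 6.80), 205 bp and 3.33-fold. Thus H3K4me3 that was listed in NFOs and not in the earlier stages was narrow and weak: 41.7% of those peaks had a fold above 3.5, where the pattern with both had 94.9%. A place near the threshold can be listed in 1 library and missed in another, and without replicates this cannot be told apart from a change of the mark.

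The patterns also differed in sequence. Of the 228 members with H3K4me3 in neither earlier stage, 91 (39.9%, 33.5 to 46.6) were at least 50% soft-masked as repeats in the 200 bp around the summit, against 72 of 604 (11.9%, 9.44 to 14.8) with H3K4me3 in both. The share was 32.7% (26.1 to 39.7) with H3K4me3 in NSCs only, and with it in OPCs only 10 of 37 members (interval 13.8 to 44.1%) were so masked, both overlapping the interval of the pattern with neither, while all NFO OLIG2 peaks gave 28.9%. Among members with neither, a facing run was present at 183 (80.3%, 74.5 to 85.2), and at 155 (68.0%, 61.5 to 74.0) the same run lay beside the edge of the NFO H3K4me3 peak. In the pattern with both, these values were 71.5% (67.7 to 75.1) and 51.7% (47.6 to 55.7). The intervals of the facing-run shares overlap. The share with the same run also went with width, and 71.1% of members with neither were on NFO H3K4me3 under 400 bp, against 46.2% with both. A facing run was at 71.9% (65.1 to 78.1) with H3K4me3 in NSCs only and at 78.4% (61.8 to 90.2) in OPCs only. Of the members with no facing run, 61.4% (55.5 to 67.2) had H3K4me3 in both and 45 of 280 (16.1%) in neither. At the strongest member with neither, near Gm13632, the NFO H3K4me3 was 2.82-fold over 470 bp. The X chromosome held 43 members, of which 24 had H3K4me3 in neither.

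**Figure D4:**
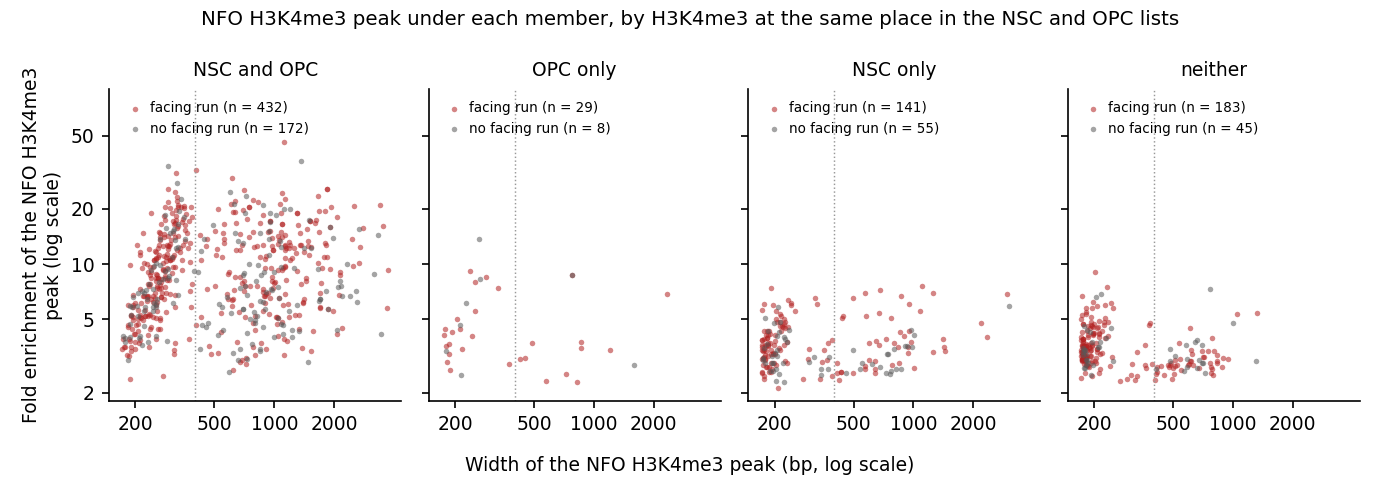
Fold enrichment (vertical axis, log scale) against width (horizontal axis, bp, log scale) of the NFO H3K4me3 peak under each member, in 4 panels by H3K4me3 at the same place in the NSC and OPC lists, with members that have a facing run in red and others in grey, and the 400 bp width dotted. The median fold is 8.59 with H3K4me3 in both and 3.33 with it in neither.

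All 8 members of the pattern with neither that were at a TSS were examined, a choice made after their values were seen. They were at C3ar1, the receptor of complement fragment C3a (14.4-fold OLIG2), Cd209d, a lectin (13.5), Kat2b, a histone acetyltransferase (13.4), Celf6, an RNA-binding protein (11.3), Prkacb, a catalytic subunit of protein kinase A (10.5), 4930568G15Rik (7.12), Vdac3, a channel of the outer mitochondrial membrane (6.35), and Gpr37l1, an orphan receptor (5.27). Their NFO H3K4me3 was from 2.41-fold at 4930568G15Rik to 6.24-fold at Celf6, and all 8 had a facing run. At Kat2b, Celf6, Prkacb and Vdac3 the summit lay in an intron, and the nearest TSS was of a transcript that starts inside the gene. Marks at the first TSS of these genes are not described here. C3ar1 is expressed by microglia and other immune cells, which the panning was meant to take out. Of 20 microglia marker genes, H3K4me3 lay within 1 kb of a TSS for 3 (NSCs), 4 (OPCs) and 1 (NFOs). The part of such cells in these peaks was not tested.

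H3K4me3 shared with OPCs and missing from the NSC list was the smallest pattern, and it held the 1 member at a myelin gene. At Ugt8a, which encodes the enzyme that makes galactocerebroside, the lipid to which the NFO panning antibody binds, an OLIG2 peak of 17.0-fold lay in an intron 2489 bp downstream of the nearest TSS (chr3:125935944-125936179). The H3K4me3 fold there was 5.57 in OPCs over 192 bp and 4.69 in NFOs over 212 bp. In NSCs the same place had H3K27me3 of 5.0-fold over 1443 bp and no H3K4me3, so the listed marks differed between NSCs and the later stages. The peak had no facing run, and the nearest OPC OLIG2 peak was 10434 bp away. These values are of this place and not of the whole gene. The study names Ugt8a among genes bivalent in NSCs and with H3K4me3 alone later, which had OLIG2 called peaks in both OPCs and NFOs. The strongest member of the pattern, printed above, was an intron of Ank3 (17.8-fold) with H3K4me3 of 9.72-fold in OPCs and 8.73-fold in NFOs, and with H3K27me3 of 3.98-fold in OPCs. A second Ank3 member, of 6.72-fold, lay on the same H3K4me3 peak. At Sdk1, an adhesion molecule, the values were 14.4-fold for OLIG2, 5.12 for OPC H3K4me3 and 6.18 for NFO H3K4me3. H3K27me3 was also listed there, at 3.03-fold in NSCs and 4.09-fold in OPCs, with none in NFOs. The fifth of this pattern lay in an intron of Camkmt, with the homeobox gene Six3 as the nearest TSS at 218243 bp, too far to assign. That place also had H3K27me3 of 5.34-fold in OPCs.

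H3K4me3 in NSCs and NFOs with none listed in OPCs was led by an intron of Ahrr, the repressor of the aryl hydrocarbon receptor (25.2-fold). H3K4me3 there was 4.87-fold over 366 bp in NSCs and 3.40-fold over 174 bp in NFOs. Zfp579, a zinc finger gene, had a peak of 24.7-fold 2057 bp upstream, on H3K4me3 of 7.36-fold over 3208 bp in NSCs and 4.28-fold over 854 bp in NFOs. Widths of NSC and NFO peaks are not on 1 scale, because NSC reads were single-end and the others paired-end, as the names of the peaks show.

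H3K27me3 was listed under a larger share of members than of all NFO OLIG2 peaks, in each cell type. In NSCs it was under 248 members (23.3%, 20.8 to 25.9), against 15.8% of all NFO OLIG2 peaks. In OPCs it was under 253 (23.8%, 21.2 to 26.4), against 9.75%. In NFOs it was under 131 (12.3%, 10.4 to 14.4), against 2.44%. Both marks at 1 place in NFOs were thus listed for those 131 members. Shared OLIG2 peaks on H3K4me3 had NFO H3K27me3 in 6.73% (4.26 to 10.0) and the whole NFO H3K4me3 list in 8.08%. The members' share was 11.8% (8.25 to 16.2) with no facing run and 9.55% (7.05 to 12.6) on wide NFO H3K4me3. Of the 131, 130 (99.2%, 95.8 to 100) also had H3K27me3 in OPCs, where 91.3% of all NFO OLIG2 peaks on NFO H3K27me3 did. The exception had it in NSCs. At least 1 of the 3 H3K27me3 lists covered 366 members (34.4%, 31.5 to 37.3), against 21.7% of all NFO OLIG2 peaks, and 33.2% (27.7 to 39.1) of the members with no facing run. The share differed between the patterns: NSC H3K27me3 was under 82 of the 196 members with H3K4me3 in NSCs and not OPCs (41.8%, 34.8 to 49.1) and under 96 of 604 with it in both (15.9%, 13.1 to 19.1). Both marks come from bulk libraries, so 2 marks on the same chromosome and marks in different cells cannot be told apart.

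All 6 histone lists, of which the choice itself required NFO H3K4me3, covered 45 members (4.23%, 3.10 to 5.61). Peaks shared with OPCs on H3K4me3 were so covered in 2.75% (1.27 to 5.16) and OPC-only peaks on OPC H3K4me3 in 4.12% (2.71 to 5.98), with overlapping intervals. With no facing run the members' share was 4.29% (2.23 to 7.37). At a TSS were 24 of the 45, which are named here, a choice made after their values were seen. Runx1, a regulator of blood cell formation on the microglia list, had an OLIG2 peak of 21.9-fold 147 bp downstream of a TSS. Its H3K4me3 fold was 12.2, 10.2 and 9.80 in the order NSCs, OPCs, NFOs, and its H3K27me3 fold 5.02, 14.0 and 7.71. Runx2, a regulator of bone formation, had 16.3-fold OLIG2, with H3K27me3 of 5.67, 7.12 and 7.05 in NSCs, OPCs and NFOs. Zic1, a neural zinc finger factor, had 18.6-fold, on an NFO H3K27me3 peak of 12689 bp and an H3K4me3 peak of 280 bp. Tbx3 (15.5-fold) had its OLIG2 peak 365 bp downstream of a TSS, on NFO H3K27me3 of 19304 bp. The nearest TSS to that peak, at 18 bp, was of the lncRNA Tbx3os1. The TSS of a lncRNA was nearest for Gm33460 (15.4-fold, with Eomes as the nearest protein-coding gene), Gm44094 (13.3, Dlx6), Gm26872 (12.7, Barhl2), Hand2os1 (9.54, Hand2), Gm38708 (7.57, Gata2), Tlx1os (4.11, Tlx1) and Foxl2os (3.71, Foxl2). The other members were at Dhrs3, Igf1, a growth factor (9.83-fold), Sfrp1, a Wnt antagonist (3.10), and Sv2b, a synaptic vesicle protein (2.30). Those at Ddx43, Slc11a2, Plekha6, Slfn5, Tacc1, Grip1, Shroom3, Slc26a4 and 4930458D05Rik ran from 6.40-fold to 13.7-fold. 4930458D05Rik is a lncRNA, with Gpat3 as the nearest protein-coding gene. The peaks at Tlx1os, Foxl2os, Sfrp1 and Sv2b fell below the study's filter of fold above 5. Their −log10 FDR was 1.25, 1.05, 0.750 and 0.390.

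The highest OLIG2 folds on NFO H3K27me3 were Dhrs3 (24.9), the Icam5 intron printed above (24.4), a peak in an intron of the lncRNA Gm32957, near Bahd1 (22.3), one 114 bp upstream of Gm11379 near Foxc1 (22.0) and Runx1 (21.9). At Dhrs3, from NSCs over OPCs to NFOs, H3K27me3 was 3.72-fold, 10.1-fold and 4.49-fold, beside H3K4me3 of 15.7, 17.6 and 12.4. At the Icam5 intron it was 6.95-fold in OPCs and 7.44-fold in NFOs, with none listed in NSCs. Foxp1 had 3 members with 3 different patterns. That 32 bp from a TSS (4.42-fold OLIG2, below the study's 5-fold threshold) had H3K4me3 in all 3 stages, and H3K27me3 in OPCs and NFOs. That 3791 bp downstream of another TSS (9.37-fold) had H3K4me3 in OPCs and NFOs and no H3K27me3, and that 2303 bp downstream of yet another TSS (11.7-fold) had H3K4me3 in NSCs and NFOs and H3K27me3 in all 3 stages.

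Genes of the oligodendrocyte lists were then looked up, against 2.63% of all genes with a member in the body or 5 kb upstream. That share counts 21286 lncRNAs among the 43224 genes and is lower than for protein-coding genes. Of the 21938 protein-coding genes, 825 had a member and 6190 had any NFO OLIG2 peak by this measure. Of 18 myelin genes, 0 had one at a TSS and 1, Ugt8a, in the body, although 7 had some NFO OLIG2 peak in the body or 5 kb upstream. The number of myelin genes with H3K4me3 at the TSS was 11 for the NSC list, 11 for the OPC list and 6 for the NFO list. Of 28 regulators of oligodendrocyte differentiation, 3 had a member. Tcf7l2, an effector of Wnt signalling that is raised in differentiating oligodendrocytes, had a peak of 10.8-fold 567 bp downstream of a TSS, and H3K4me3 of 16.8-fold (NSCs), 11.4-fold (OPCs) and 12.8-fold (NFOs). Zfp536 had members of 22.7-fold and 3.51-fold in its introns, both with H3K4me3 in NSCs and OPCs. The weaker of the 2, with a −log10 FDR of 0.950, fell below the study's filter. Smarca4, the ATPase of a chromatin remodelling complex, had a peak of 6.85-fold 1692 bp downstream of its TSS, in sequence that was 100% soft-masked. The 18 genes of OPC identity had 3 members, none at a TSS of a list gene: Sox5 (4.42-fold), Lhfpl3 (2.74-fold) and Matn4 (12.6-fold). The Sox5 and Lhfpl3 peaks fell below the study's filter of fold above 5, with a −log10 FDR of 1.38 and 0.579. The peak counted for Matn4 met the filter, but it shared only 1 bp with that gene, at its 3′ end. Its summit lay between genes, 181 bp upstream of Slpi, so it is not a peak at the start of Matn4.

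The cholesterol synthesis list had 1 member among 24 genes, at Srebf1, a regulator of lipid synthesis, 62 bp downstream of a TSS (7.31-fold). H3K4me3 there was 6.44-fold (NSCs), 5.99-fold (OPCs) and 6.34-fold (NFOs), and H3K27me3 was 4.21-fold in NSCs and 6.75-fold in OPCs with none listed in NFOs. Of 20 cytoskeletal genes, Mapt, which encodes the microtubule protein tau, had a peak of 6.86-fold 26 bp downstream of a TSS, and Map4 one of 6.74-fold in an intron. Id3, an inhibitor of basic helix-loop-helix factors on the astrocyte list, had one of 8.30-fold 17 bp upstream of its TSS, with H3K4me3 in all 3 stages and no H3K27me3. Pax6, of 14 neural stem cell genes, had a peak of 12-fold 3468 bp upstream with H3K27me3 in OPCs (4.61-fold) and NFOs (6.09-fold). E2f1, of 24 cell cycle genes, had one of 10.7-fold 3170 bp upstream with H3K27me3 of 8.24-fold in OPCs and 5.84-fold in NFOs. Tet1, of 20 chromatin regulators, had one of 8.84-fold in an intron. The 18 neuron and 12 endothelial marker genes had 0 members. Per list, the genes with a member ran from 0 of 18 to 3 of 18, counts too small to order the lists.

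E-boxes near the summit are shown in capitals in the next sequences, 50 bases on each side of the summit on the same strand and build. They were picked to show a strong member with several E-boxes, members with CAGCTG, the Ugt8a member with none, and a peak shared with OPCs for comparison.
Arl8b, chr6:108782902-108783002: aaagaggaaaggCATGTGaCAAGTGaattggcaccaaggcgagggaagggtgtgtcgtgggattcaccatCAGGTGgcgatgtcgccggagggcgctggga
Cnot2, chr10:116580854-116580954: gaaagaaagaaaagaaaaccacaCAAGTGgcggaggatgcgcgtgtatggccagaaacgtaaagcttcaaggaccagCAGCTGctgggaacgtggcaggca
Zfp579, chr7:4998165-4998265: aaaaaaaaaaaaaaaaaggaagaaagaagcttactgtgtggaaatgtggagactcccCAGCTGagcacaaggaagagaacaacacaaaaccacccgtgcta
Ugt8a, chr3:125936012-125936112: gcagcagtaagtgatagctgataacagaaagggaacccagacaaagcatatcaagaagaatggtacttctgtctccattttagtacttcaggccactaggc
Ppp1r10, shared with OPCs, chr17:35919150-35919250: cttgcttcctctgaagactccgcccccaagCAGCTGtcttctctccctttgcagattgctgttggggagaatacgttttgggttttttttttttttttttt
The run of T that faces the Ppp1r10 summit and the run of A that faces the Zfp579 summit can be read at the ends of their sequences.

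CAGCTG, a palindrome that reads the same on both strands, was present in the 100 bp around the summit of 55 members (5.16%, 3.91 to 6.67), against 5.05% of all NFO OLIG2 peaks and 6.60% of windows at TSSs. NFO peaks shared with OPCs on H3K4me3 had it in 12.2% (8.88 to 16.3), and shared peaks without the mark in 11.9% (9.63 to 14.5). Members with a facing run had it in 3.95% (2.70 to 5.56) and members without in 8.57% (5.57 to 12.5), the latter overlapping the shared peaks' interval. Any E-box CANNTG, which includes CAGCTG, was found at 385 members (36.2%, 33.3 to 39.1), against 34.9% of TSS windows and 42.0% of all NFO OLIG2 peaks. The GC box GGGCGG, searched on both strands, was at 5.07% of members, 1.41% of all NFO OLIG2 peaks and 17.1% of TSS windows. At least 4 CpG in 200 bp were found at 451 members (42.3%), against 14.6% of all NFO OLIG2 peaks. A match is a description of these letters, not of binding.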

How the data were processed

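The data are ChIP-Seq peak lists of OLIG2 and 2 histone marks, with 1 library per condition, and the 3 ChIP input samples and 2 RNA immunoprecipitation lists were not used. The authors aligned to mm10 (Bowtie2), using reads of unique position. SPP called the peaks of OLIG2 and MACS2 in broad mode those of the histone marks, per library, and regions on the ENCODE blacklist were dropped. The deposited lists give a fold enrichment over control and a −log10 FDR for each peak, and they hold weaker peaks than the thresholds used in the study (FDR below 0.05, fold above 5 for OLIG2 and 3.5 for histone marks). All listed peaks were used. Reads per library are not in the lists, so the precision of single peaks is unknown.

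Members, gene lists and tests were chosen with earlier results of these data known. Overlaps needed 1 bp. The distance to a TSS ran from the OLIG2 summit to the nearest start of any transcript of 43224 genes, 35312 from GENCODE and 7912 lncRNAs from NCBI, in GRCm38. Python 3.11.15, pandas 2.3.3, SciPy 1.17.1 and pysam 0.24.0 were used. Overlaps, gaps, TSS distances, motifs and runs were tested on simulated data, where 2000 of 2000, 2000 of 2000, 2000 of 2000, 1000 of 1000 and 1000 of 1000 were recovered. With 1 library per condition no test between conditions was made, and shares have exact 95% binomial intervals. Motifs were searched in 100 bp around the summit on both strands. Named are the genes nearest to the 15 members of highest OLIG2 fold, to the 5 highest of each H3K4me3 pattern and on NFO H3K27me3, list genes with a member, genes with 3 or more members, and members next to the thresholds. Genes named for other reasons are said to be so where they appear. Alternatives covered the peak filter, the overlap, the distance from OPC peaks, the TSS set and distance, and the motif window. A further 3, on FDR, facing runs and histone peak width, were added after the data were seen. Summit sequences of 2 members are not reported here.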

Additional observations from a re-analysis of the deposited data

How the results depend on the processing

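Of 54 values recomputed, 27 stayed inside the interval of the main value, or within 1.5 times for the count, and 27 moved further. A share or a count has no direction, so a reversal was not looked for. With the filter of the study in every list, 692 peaks met the choice, of which 56.6% lay within 1 kb of a TSS, 75.9% on OPC H3K4me3 and 84.4% on NSC H3K4me3. The stricter filter needed a fold above 10 for OLIG2 and 5 for histone marks, with an FDR below 0.05. By it 312 peaks met the choice, with 69.9% at a TSS, 87.5% on OPC and 88.8% on NSC H3K4me3. Of these, 9.29% lay on NFO H3K27me3 and 3.21% within 5 kb of an OPC OLIG2 peak that passed the filter. Both filters also dropped weak OPC OLIG2 peaks. A peak that overlapped only a dropped one then counted as NFO-only, so these sets need not lie within the members. The TSS share was 38.9% for protein-coding genes alone and 55.8% at 2 kb, and CAGCTG was in 10.0% of windows of 200 bp. The next alternatives were chosen after seeing the data. At an FDR no higher than in the OPC list, 473 peaks gave 49.5% at a TSS and 65.8% on OPC H3K4me3. Without facing runs, 280 peaks gave 64.3% on OPC and 81.1% on NSC H3K4me3 and 8.57% with CAGCTG. With histone peaks of at least 400 bp in every list, 471 peaks gave 56.5% at a TSS, 69.9% on OPC and 80.3% on NSC H3K4me3, 8.70% on NFO H3K27me3, 11.9% near an OPC OLIG2 peak and 7.43% with CAGCTG. A wider window or distance can only raise a share, fewer genes can only lower it, and the cause of the other moves was not tested. No paired analysis was possible because each condition has 1 library.

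Presence or absence in a list depends on depth and threshold, neither of which is matched between libraries, and no replicate shows how often a peak recurs. The lists of NSCs, OPCs and NFOs were called separately, their widths come from different read layouts, and intervals treat neighbouring peaks as independent.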

Other observations

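The share of members on the sex chromosomes and in gene clusters was not part of the comparisons above. Of 1065 members, 43 (4.04%) lay on the X chromosome, where 369 of 16911 NFO OLIG2 peaks (2.18%) did, and 0 lay on the Y chromosome, where 3 of all did. H3K4me3 was listed in NSCs and OPCs at 13 of the 43, in OPCs only at 2, in NSCs only at 4 and in neither at 24. Chromosome 7 held the most members, 84 (7.89%), against 5.65% of all NFO OLIG2 peaks. The 3 members of Zfp936, a zinc finger gene on this chromosome, were 11.0-fold, 5.65-fold and 12.6-fold in OLIG2 enrichment, with 75%, 40.0% and 67.5% of the bases around the summit soft-masked. H3K4me3 was absent from the OPC list at all 3 places, and from the NSC list at the first 2.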
